A study of Phycomyces blakesleeanus with 24 samples.

Results

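Sporangiophores of wild type Phycomyces blakesleeanus were compared between light and darkness across every gene of the authors' deposited table for that pair of groups, which holds 14410 of the 14490 gene IDs found in the series. Phycomyces is a filamentous fungus of the Mucoromycota, and the sporangiophore is the tall aerial stalk that carries its spores. The 2 groups were wild type sporangiophores labelled light and wild type sporangiophores labelled dark. Each had 3 labelled biological replicates, and together they were 6 of the 24 libraries of the series. The mutant called ΔL51 is described as a photoreceptors mutant, with its alleles not given in the sources used here. Its samples carry the same light and dark labels, and mycelium of both strains was sampled too. All cultures grew on the medium labelled PDA, and the labels give neither the intensity nor the duration of the light. The authors set aside light replicate 2 and dark replicate 3 of the wild type sporangiophores because they scattered more than their fellow replicates, so the spread behind the p-values was narrowed by a choice made from the measured values. The comparison therefore rests on 2 libraries in light and 2 in darkness. Of the groups set beside it, mutant sporangiophores kept 3 libraries in light and 2 in darkness, and wild type mycelium likewise kept 3 and 2. No marker list for the structure was at hand, so the labelled tissue was not checked against markers.

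Fungi of this kind sense blue light with White Collar 1 proteins, which bind a flavin and act together with White Collar 2 proteins as transcription factors. In Phycomyces the genes madA and madB encode one such pair, and light bends the sporangiophore, changes its growth and raises the synthesis of beta-carotene in the mycelium. Mitochondrial respiration, to which many of the named genes belong, passes electrons from NADH and succinate along a chain of complexes to oxygen and drives ATP synthase.

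Each gene came with 1 log2 fold change, 1 average log2 CPM (the log2 of depth-scaled read counts, averaged over the libraries of the fit), a likelihood ratio, a p-value and a false discovery rate (FDR). Neither depth nor any value of a single library was at hand, so no gene can be shown library by library and no spread between replicates could be computed. The error given beside a log2 fold change is an approximate standard error (SE), the size of the change divided by the square root of its likelihood ratio. A positive log2 fold change is read as higher in light, from the title of the table. Genes were called at an FDR under 0.05. The average log2 CPM is the same for each of the 14410 genes in the tables of wild type mycelium and mutant sporangiophores, so it describes reads over more libraries than the 4 compared here.

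Most genes called in the wild type sporangiophore were higher in light. Of the genes in the authors' deposited table, 8.41% were called, 1042 (7.23%) as higher in light and 170 (1.18%) as lower, so that 86.0% of calls were higher. With the trend on level and gene span described below taken out, 64.7% of calls were higher. The median log2 fold change over all genes was -0.05, and the central 90% lay between -1.37 and 1.65. Genes called higher had a median log2 fold change of 1.72, a 3.30-fold difference, and reached 5.83 at most. Of these, 992 changed at least 2-fold, 338 at least 4-fold and 51 at least 8-fold. Genes called lower had a median of -1.18, with 115 changed at least 2-fold, 41 at least 4-fold and 28 at least 8-fold.

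Rises and falls came from different ranges of expression. The median average log2 CPM was 7.57 for genes called higher and 4.74 for genes called lower, against 4.64 for the whole table. Of the genes at or above that table median, 983 were called higher and 92 lower. None of these 92 fell 4-fold, and the 41 genes that did had an average log2 CPM of 4.20 at most, with a median of 2.83. With so few reads behind it, a large fold is poorly measured. The approximate SE had a median of 1.03 in the lowest quintile of expression and 0.35 in the highest, and the smallest change called was 2.84 in the lowest quintile and 0.67 in the highest.

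**Figure D1:**
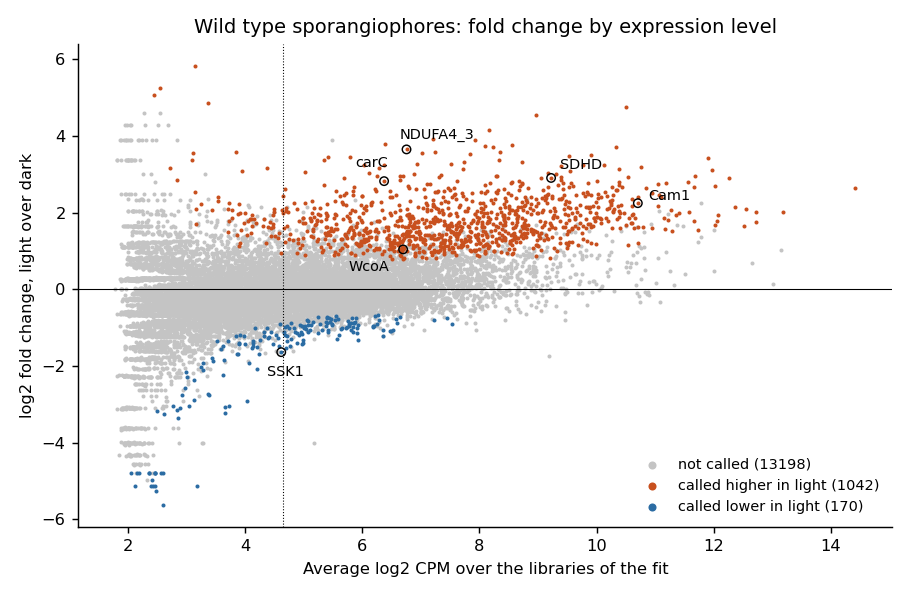
Log2 fold change, light over dark (y axis), against average log2 CPM (x axis) for 14410 genes of wild type sporangiophores, 1 point a gene, from the authors' deposited table. Orange points are the 1042 genes called higher, blue points the 170 called lower and grey points those not called, with the dotted line at the median level of 4.64 and circles round named genes. Orange points lie mostly to the right of the line, and blue points sink furthest at its left.

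The share of genes called higher climbed with expression level and was greater for short genes at high levels. By quintile of average log2 CPM, the percentage called higher was 0.139%, 1.04%, 2.05%, 5.07% and 27.9% from lowest to highest, and 803 of the 1042 genes called higher were in the highest quintile. With levels taken per kilobase of gene span the picture was the same in kind, with 30.1% called higher in the highest quintile and 0.209% in the lowest. Within the highest quintile of average log2 CPM, 54.1% of the genes in the shortest quintile of gene span were called higher, against 9.73% of those in the longest. The median log2 fold changes of these 2 sets were 1.503 (255 genes) and 0.06 (935 genes). Mutant sporangiophores had medians of -2.28 and -0.10 for the same genes, and wild type mycelium had -0.69 and 0.38. Calls were therefore also made after taking out, for each gene, the median fold of the 200 genes nearest to it in both, a step chosen after the data were seen, after which 297 genes were called higher and 162 lower. Of the 1042 genes called higher as deposited, 285 were among those 297, and of the 170 called lower, 48 were among the 162.

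**Figure D2:**
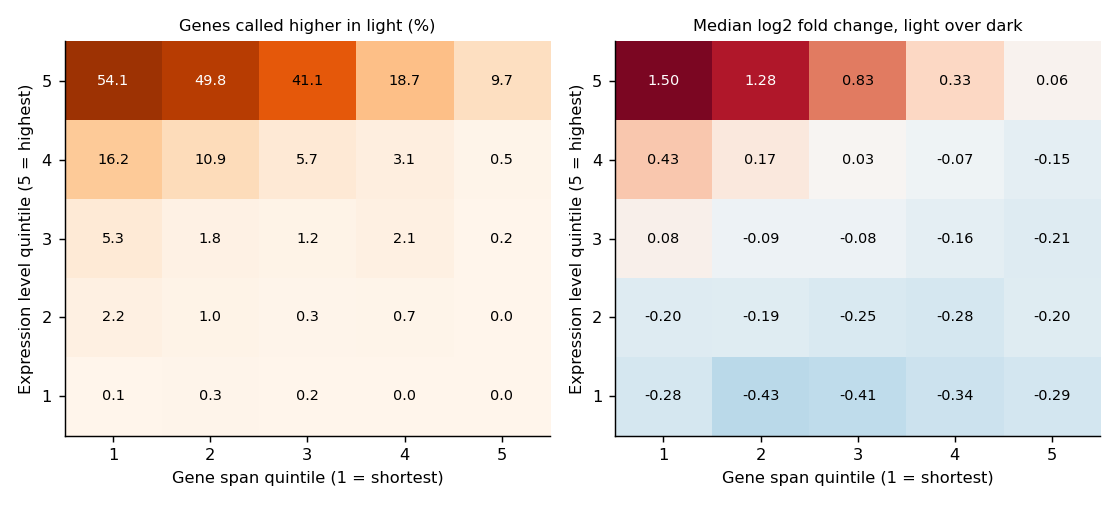
Genes of wild type sporangiophores split by quintile of gene span (x axis, 1 the shortest) and of average log2 CPM (y axis, 5 the highest); each cell prints the percentage of genes called higher in light (left panel) or the median log2 fold change, light over dark (right panel). Both rise towards the upper left, from 9.73% for the longest to 54.1% for the shortest genes of the highest level.

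The largest rises among well expressed genes belonged to genes without a symbol. PHYBLDRAFT_79190 had a log2 fold change of 4.77 ± 0.50 (SE) in the authors' deposited table (FDR 1.1e-17), a 27.3-fold difference. PHYBLDRAFT_159237 followed with 4.56 ± 0.51 (FDR 2.5e-15), PHYBLDRAFT_129350 with 4.16 ± 0.58 (FDR 6.4e-10) and PHYBLDRAFT_103278 with 3.93 ± 0.55 (FDR 5.5e-10) in the authors' deposited table. All 4 are short genes, with spans of 491 to 862 bases, and each stayed called with the trend on level and gene span taken out. In the authors' deposited table for wild type mycelium, only PHYBLDRAFT_129350 of these 4 was called (1.27, FDR 0.0035), and in that for mutant sporangiophores all 4 were called lower, with log2 fold changes of -2.95 to -6.16.

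The falls among well expressed genes were smaller. PHYBLDRAFT_140593 had -1.52 ± 0.38 (SE, FDR 0.0016), PHYBLDRAFT_104675 had -1.47 ± 0.42 (FDR 0.011), PHYBLDRAFT_73352 had -1.43 ± 0.42 (FDR 0.011) and PHYBLDRAFT_65762 had -1.40 ± 0.42 (FDR 0.014) in the authors' deposited table. Of these, PHYBLDRAFT_73352 was also called lower in wild type mycelium (-2.20, FDR 2e-06), per the authors' deposited table for that structure. With the likelihood ratio set against an F distribution with 12 degrees of freedom, 6 of the 170 genes called lower stayed called. PHYBLDRAFT_140593 was among them (adjusted p = 0.049), while PHYBLDRAFT_104675, PHYBLDRAFT_73352 and PHYBLDRAFT_65762 were not. The 12 are the 20 libraries kept in the series less its 8 groups, as if all had been fitted together. Whether mutant mycelium, with 14242 gene IDs, shared that fit was not checked. A fit of fewer groups would leave fewer degrees of freedom, and calls against this F distribution could then only be fewer or the same. No gene with a symbol and a level of at least the table median was called lower. The 10 genes called lower with the most reads, none of which has a symbol, had log2 fold changes of -0.72 to -1.23 and average log2 CPM of 6.35 to 7.53 in the authors' deposited table. The most read of them was PHYBLDRAFT_179009 (-0.91 ± 0.32, FDR 0.049), and the largest fall among them was that of PHYBLDRAFT_124155 (-1.23 ± 0.37, FDR 0.015), again in the authors' deposited table. None of these 10 stayed called against that F distribution.

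Genes with very many reads were also among those called higher. The 10 with the most reads had average log2 CPM of 12.1 to 14.4 and log2 fold changes of 1.66 to 2.90 in the authors' deposited table. PHYBLDRAFT_124466, the most read gene of the table, had 2.64 ± 0.62 (SE, FDR 0.00078), and PHYBLDRAFT_186981 had 2.90 ± 0.54 (FDR 6.9e-06), the largest of the 10, in the authors' deposited table. Once the trend on level and gene span was taken out, PHYBLDRAFT_186981 was the single gene of the 10 still called (log2 fold change 1.88, adjusted p = 0.022), but with the trend on level alone taken out it had 0.54 (adjusted p = 0.7). PHYBLDRAFT_124466 had 0.89 with the trend on both taken out (adjusted p = 0.56). The other 8 were PHYBLDRAFT_157047, PHYBLDRAFT_159602, PHYBLDRAFT_136474, PHYBLDRAFT_135540, PHYBLDRAFT_136235, PHYBLDRAFT_187359, PHYBLDRAFT_36112 and PHYBLDRAFT_89576.

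Only 208 of the 14410 IDs carry a symbol in the reference table, and these are not a sample of the genome, since most name respiratory and signalling genes. Among them 67 (32.2%) were called higher and 2 lower, against 975 (6.87%) of 14202 genes without a symbol. Their median average log2 CPM was 6.82. Of the 67, 9 stayed called higher with the trend on level and gene span taken out, namely CK2A, INH1, NDUFA4_3, NDUFS8, Pb2oxodhE2, PbAcoc, QCR2, WcoA and carC. Of these 9, NDUFS8, QCR2 and WcoA were not called with the trend on level alone taken out (adjusted p = 0.098, 0.52 and 0.064). The remaining symbol genes described below as higher lost their call with the trend on both taken out. The symbol genes called in either direction all belong to the gene lists described next, and lists are given by their counts and medians beside the 7.23% called higher and the median of -0.05 over all genes.

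The subunits of the respiratory chain were the group with the most calls. Of 36 complex I genes (NADH dehydrogenase), 19 were called higher and 0 lower by the edgeR test of the authors' deposited table, with 26 at an unadjusted p under 0.05 in either direction and a median log2 fold change of 1.20. Complex II, succinate dehydrogenase, had 4 of 5 genes called higher (median 1.52). Complex III with cytochrome c had 8 of 15 called higher and 1 lower (median 1.501), complex IV, cytochrome oxidase, 6 of 12 (median 1.31), and ATP synthase with its inhibitor and assembly genes 13 of 24 (median 1.53). Every one of the 24 ATP synthase genes had a positive fold, down to 0.04. These are short genes with many reads (median span 883 bases and median average log2 CPM 7.79 over all 92). In the highest quintile of level and the second shortest quintile of span, where these medians fall, 214 of 430 genes of any kind (49.8%) were called higher. With the trend on level and gene span taken out, 4 of the 92 were called higher and 3 lower, with a median of 0.26 in place of 1.34.

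Within the respiratory lists the size of the change differed from subunit to subunit. Among complex I genes NDUFA4_3 had the largest log2 fold change, 3.65 ± 0.83 (SE, FDR 0.00042), in the authors' deposited table; in mammals the protein of that name is also assigned to cytochrome oxidase. NDUFS4 (2.53 ± 0.46, FDR 5.4e-06), Ndufa5 (2.35 ± 0.38, FDR 2.6e-07) and NDUFB8 (2.01 ± 0.43, FDR 0.00013), accessory subunits in mammals, followed in the authors' deposited table. SDHD and SDHC, membrane anchors of succinate dehydrogenase, had 2.91 ± 0.48 and 2.15 ± 0.41 there, and the flavoprotein genes SDH1 (1.52 ± 0.32) and SDH1_2 (1.46 ± 0.37) passed as higher too in the authors' deposited table. In complex III the Rieske iron-sulfur genes RIP1_2 (2.77 ± 0.48) and RIP1 (2.25 ± 0.46) led, ahead of the core protein gene QCR2 (2.01 ± 0.40) and QCR9 (1.84 ± 0.39), in the authors' deposited table.

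Cytochrome oxidase held both called and uncalled subunits at like levels. COX9 (2.53 ± 0.58, SE), COX6B_2 (2.35 ± 0.55), COX5B (1.98 ± 0.49) and COX6A (1.78 ± 0.45), named after yeast or mammalian subunits, passed as higher in the authors' deposited table. COX4 (0.05 ± 0.43, FDR 0.97) and COX7A (-0.11 ± 0.35, FDR 0.92) did not pass in the authors' deposited table, although their average log2 CPM of 8.77 and 8.54 was in the same range. Relative to genes of like level and span, COX4 and COX7A were called lower (adjusted p = 0.025 and 6.6e-05). Of ATP synthase, INH1, the inhibitor protein in yeast, had 2.67 ± 0.45 (FDR 5.6e-07) in the authors' deposited table. ATP17_2 (2.35 ± 0.40), ATP15 (2.26 ± 0.55) and ATP20 (2.25 ± 0.42), small subunits by their yeast names, passed as higher in the authors' deposited table too. ATP1 (1.32 ± 0.47, FDR 0.056) and ATP2 (0.23 ± 0.43, FDR 0.85) did not pass in the authors' deposited table. The respiratory genes that stayed called higher with the trend taken out were NDUFA4_3 (adjusted p = 0.025), NDUFS8 (adjusted p = 0.025), QCR2 (adjusted p = 0.017) and INH1 (adjusted p = 0.001).

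**Figure D3:**
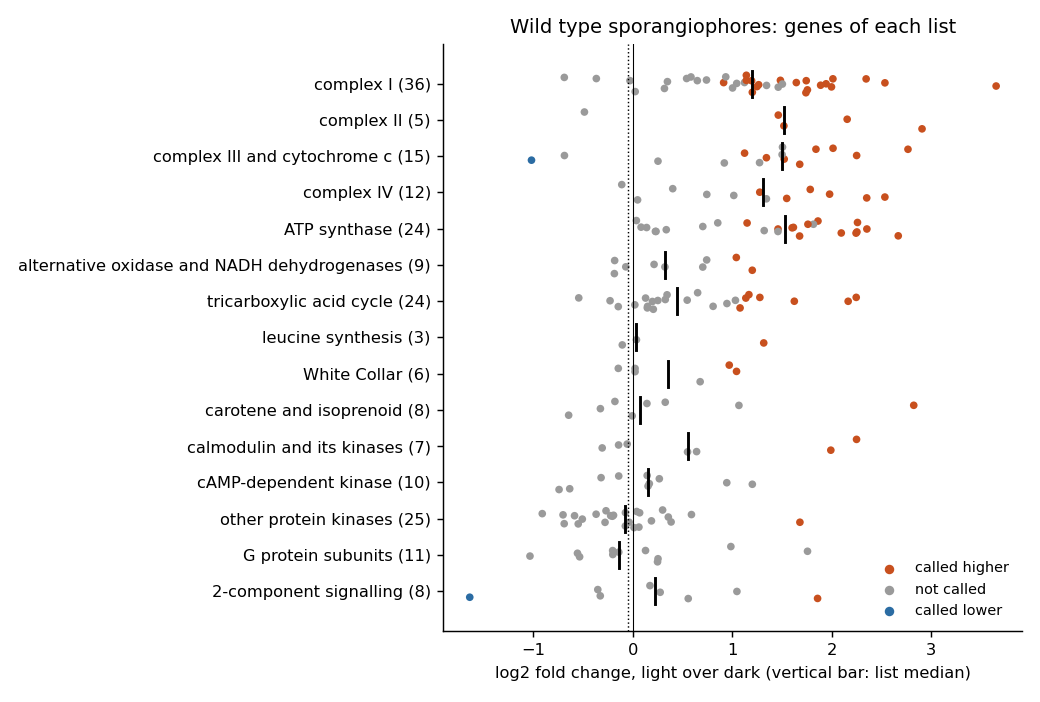
Log2 fold change, light over dark (x axis), of each measured gene in 15 lists (rows, with the number of genes), 1 point a gene, with orange for called higher, blue for called lower, grey for not called and a black bar at the list median. The dotted line is the median of all genes, -0.05, and the 5 respiratory lists have medians of 1.20 to 1.53.

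Metabolic genes near the respiratory chain had fewer calls as deposited, but they are also longer genes. Of 24 genes of the tricarboxylic acid cycle and of pyruvate dehydrogenase, 7 (29.2%) were called higher and 0 lower by the authors' edgeR test (9 at an unadjusted p under 0.05), with a median log2 fold change of 0.45. Their median span was 2232.5 bases and their median average log2 CPM 7.96. In the highest quintile of level and the second longest quintile of span, where these medians fall, 133 of 711 genes of any kind (18.7%) were called higher. With the trend on level and gene span taken out, 2 of the 24 were called higher and 0 lower (median 0.18). PbAcoc, an aconitase, had 2.25 ± 0.42 (SE) and Pb2oxodhE2, the acyl transferase of 2-oxoglutarate dehydrogenase by its symbol, had 2.16 ± 0.38 in the authors' deposited table, and both stayed called after the trend was removed (adjusted p = 0.0021 and 0.013). PbMdha, a malate dehydrogenase, had 1.62 ± 0.39 and PbCsb, a citrate synthase, 1.28 ± 0.36 in the authors' deposited table. The alternative routes of electrons, which bypass the proton pumps, had 2 of 9 genes called higher (median 0.32). These were NDE2, an external NADH dehydrogenase by its symbol (1.20 ± 0.41, FDR 0.042), and NDI2 (1.04 ± 0.33, FDR 0.024), while the alternative oxidase gene AOX had 0.74 ± 0.55 (FDR 0.53), in the authors' deposited table. Of 3 leucine synthesis genes leuC was called higher (1.32 ± 0.38, FDR 0.0091), and leuA (0.04) and leuB/leu1 (-0.10) were not, in the authors' deposited table.

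Among White Collar genes the changes were small. WcoA, a White Collar 1 gene, rose by 1.04 ± 0.27 (SE, FDR 0.0033) in the authors' deposited table, and MadB, a White Collar 2 gene, by 0.97 ± 0.31 (FDR 0.025). MadA, the White Collar 1 gene of the madA-madB pair, had 0.02 ± 0.33 (FDR 0.98), and WctB (0.02 ± 0.57), WctC (-0.14 ± 0.40) and WctD (0.68 ± 0.42) were not called either in the authors' deposited table. The 6 genes had a median of 0.35, with 2 called higher and 0 lower by the edgeR test (2 at an unadjusted p under 0.05). With the trend on level and gene span taken out WcoA stayed called (adjusted p = 0.013) and MadB did not (adjusted p = 0.89). With the trend on level alone taken out neither was called (WcoA 0.80, adjusted p = 0.064, and MadB 0.54, adjusted p = 0.39). Neither stayed called with the likelihood ratio set against an F distribution with 12 degrees of freedom. In the carotene and isoprenoid list 1 of 8 genes was called higher (median 0.07). This was carC, at 2.82 ± 0.54 (FDR 1.7e-05) in the authors' deposited table and still called with the trend taken out (adjusted p = 0.00087). CarB, the phytoene dehydrogenase gene, had 1.07 ± 0.45 (FDR 0.14), and CarRA, the gene of phytoene synthase and lycopene cyclase, had 0.33 ± 0.48 (FDR 0.8), in the authors' deposited table.

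Signalling genes were called higher at 0% to 28.6% of a list, against 7.23% of all genes. Cam1, calmodulin by its symbol, had the largest change of these, at 2.25 ± 0.42 (SE, FDR 7.4e-06), and the kinase gene CaMK2 had 1.99 ± 0.62 (FDR 0.022), the 2 called of 7 in the calmodulin list (median 0.55), in the authors' deposited table. Neither stayed called with the trend on level and gene span taken out (adjusted p = 0.31 and 0.052). Of 25 other protein kinases 1 was called (median -0.07), namely CK2A, the catalytic subunit of casein kinase 2, at 1.68 ± 0.33 (FDR 3.1e-05) in the authors' deposited table, and it stayed called (adjusted p = 0.0026). By the authors' edgeR test 0 of 10 subunits of cAMP-dependent kinase (median 0.15, with 3 at an unadjusted p under 0.05) and 0 of 11 G protein subunits (median -0.14, with 2 at an unadjusted p under 0.05) were called. Of 8 measured genes of 2-component signalling, a relay of phosphate from histidine kinases to response regulators, 1 was called in each direction (median 0.22). Hpt_2, a phosphotransfer protein by its symbol, had 1.86 ± 0.56 (FDR 0.015) in the authors' deposited table. SSK1, a response regulator of the osmotic stress pathway in yeast, fell by 1.64 on the log2 scale there, with an SE of 0.49 (FDR 0.014) in the authors' deposited table, and was named after its value was seen.

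Copies of a gene often had different calls. The symbols held 29 families of 2 to 4 measured copies, 66 genes in all, chosen by the stem of the symbol. In 7 families all copies were called higher, in 15 some were and in 7 none was. The largest and the smallest log2 fold change within a family lay 0.62 apart at the median and 2.91 apart at most. Near-identical copies can share reads, and how the authors assigned such reads is not given in the sources used here. The copy with the highest level per kilobase of gene span had the highest fold in 15 of the 29 families, and it was a called copy in 9 of the 15 families with some copies called higher.

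Several of the wide spreads set called beside uncalled copies. NDUFA4_3 had 3.65 ± 0.83 (SE), while NDUFA4_2 had 1.46 ± 0.70 (FDR 0.22) and NDUFA4 had 0.74 ± 0.46 (FDR 0.41) in the authors' deposited table. QCR1_2, a core protein gene of complex III, was called higher (1.52 ± 0.44, FDR 0.01), whereas QCR1 was called lower (-1.02 ± 0.35, FDR 0.049) in the authors' deposited table, and QCR1_3 (0.25) and QCR1_4 (-0.69) were not called. QCR1 is named after its value was seen, since its level of 4.36 is below the table median. QCR1 and QCR1_2 both lost their calls against the F distribution with 12 degrees of freedom (adjusted p = 0.17 and 0.091). Both also lost them with the trend on level and gene span taken out (adjusted p = 0.27 and 0.55). For INH1 the fold of 2.67 ± 0.45 stood against 0.34 ± 0.38 for INH1_2 in the authors' deposited table. Of the 4 aconitase copies PbAcoc was called (2.25 ± 0.42), and PbAcob (0.65 ± 0.44), PbAcoa (0.35 ± 0.34) and PbAcod (0.15 ± 0.37) were not, in the authors' deposited table. Families whose copies moved together included RIP1, ATP17, SDH1, ATP4 and PbMdh, where both copies were called higher and lay at most 0.55 apart. The second widest spread, 2.68, was that of SSK1 (-1.64 ± 0.49), called lower, and the copy spelled SSk1 (1.05 ± 0.70, FDR 0.47), not called, in the authors' deposited table. Differences between copies were not tested.

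**Figure D4:**
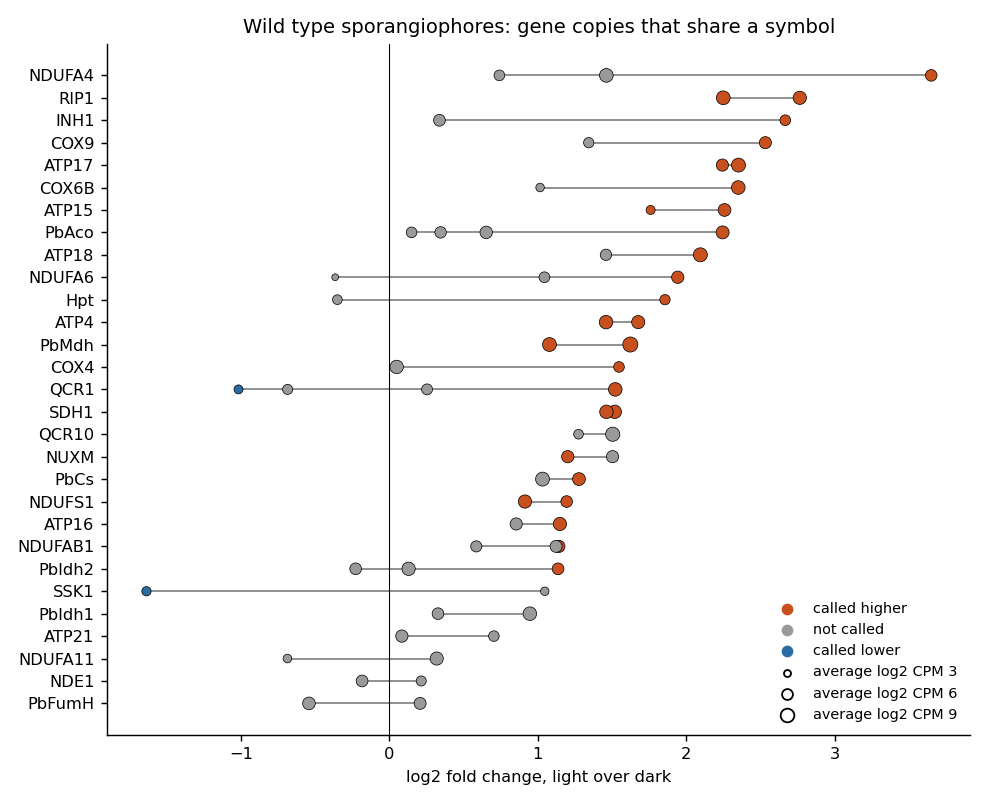
Log2 fold change, light over dark (x axis), of the copies of 29 gene families that share the stem of a symbol (rows, ordered by the highest fold), with 1 circle a copy and its area growing with average log2 CPM. Orange marks copies called higher, blue those called lower and grey those not called; the NDUFA4 family is the widest, at 2.91 between its lowest and highest copy.

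Some genes called higher were neighbours. By the gene order of assembly Phybl2, the next measured gene on the scaffold was also called higher for 124 of 1033 genes, or 12%, against 7.23% of all genes. For genes called lower it was 1 of 169 (0.592%), against 1.18%. Genes called higher formed 95 runs of 2, 13 runs of 3 and 1 run of 4 neighbours. The run of 4 held PHYBLDRAFT_133670 (2.49 ± 0.58, SE), PHYBLDRAFT_158852 (1.89 ± 0.48), PHYBLDRAFT_124900 (2.04 ± 0.50) and PHYBLDRAFT_64956 (2.12 ± 0.55) in the authors' deposited table. Runs of 3 included Ndufa5, SDH1_2, ATP17 and CaMK2, each with neighbours that have no symbol. Scaffolds were inferred from the gene order, a new one being taken where the start position dropped, so some genes counted as neighbours may lie on different scaffolds. Strand was not used in the counting of neighbours, and reads shared between overlapping neighbours could not be told apart.

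Read as the table's title gives it, the light effect in mutant sporangiophores ran opposite to that in wild type. Of the 1042 genes called higher in light in wild type sporangiophores, 810 (77.7%) were called lower in light in the authors' deposited table for mutant sporangiophores, where 12.3% of all genes were called lower and 15.7% in either direction. Those 810 are 45.5% of the 1779 genes called lower in the mutant. By the authors' edgeR test 0 of the 1042 were called higher in the mutant (1 at an unadjusted p under 0.05), where 3.31% of all genes were. The 1042 genes had a median log2 fold change of 1.72 in wild type and -1.90 in mutant sporangiophores. Of the 170 genes called lower in wild type sporangiophores, 32 (18.8%) were called higher and 0 lower in the mutant (2 at an unadjusted p under 0.05 and lower). Across genes at or above the median level the folds of the 2 strains had a Pearson correlation of -0.77 and a Spearman correlation of -0.68 (7205 genes). The Pearson correlation was -0.51 over all 14410 genes and -0.20 below the median level. Genes of a table share their libraries and are not independent.

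The direction of each table rests on its title alone, and the signs above turn with it. Were the mutant table read in the other direction, the 810 genes would be called higher in both strains and the Pearson correlation at or above the median level would be 0.77. The files give no value that settles the direction.

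Level and gene span moved with this pattern, and their part in it was not tested beyond the following values. With the trend on both taken out of both tables, the Pearson correlation at or above the median level was -0.62 (7167 genes), and 167 of the 297 genes called higher in wild type (56.2%) were called lower in the mutant, against 8.58% of all genes. Within the highest quintile of average log2 CPM, 692 of the 803 genes called higher in wild type (86.2%) were called lower in the mutant, against 428 of 2065 genes (20.7%) not called in wild type. Among the respiratory genes, 66 of 92 were called lower in the mutant and 50 higher in wild type.

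Tested as a difference between the 2 strains, the light effect was higher in wild type than in mutant sporangiophores for 2020 of 14401 genes (14%) and lower for 799 (5.55%), or 19.6% in all, at an adjusted p under 0.05 from the 2 approximate SEs. Were the mutant table read in the other direction, the light effect would be higher in wild type for 40 genes (0.278%) and lower for 273 (1.90%). As titled, the largest difference at or above the median level was that of PHYBLDRAFT_159237, 10.7 log2 units (4.56 in wild type and -6.16 in the mutant) by the authors' deposited tables, and in the other direction it would be -1.597 (adjusted p = 0.31). PHYBLDRAFT_136423 followed (3.23 and -6.80), then PHYBLDRAFT_164420 (2.72 and -7.21) and PHYBLDRAFT_138142 (3.74 and -5.93), wild type before mutant, in the authors' deposited tables. Among White Collar genes MadB differed as titled, with 0.97 in wild type and -1.26 in the mutant (difference 2.23, adjusted p = 7.3e-05), and in the other direction its difference would be -0.29 (adjusted p = 0.94).

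**Figure D5:**
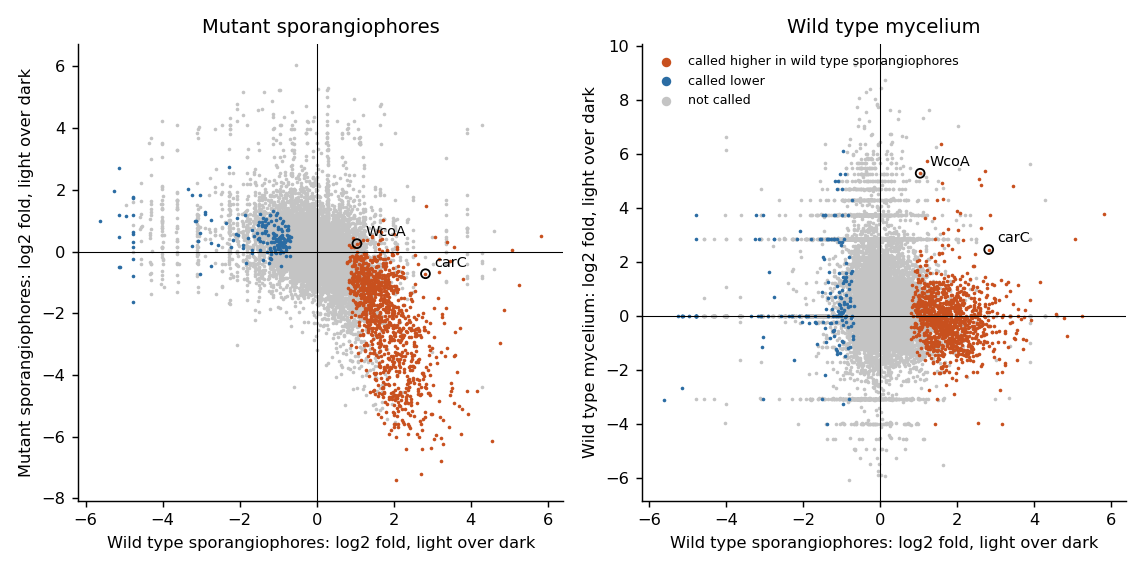
Log2 fold change, light over dark, of each gene in wild type sporangiophores (x axis of both panels) against its log2 fold change in mutant sporangiophores (left, y axis) and wild type mycelium (right, y axis), from the authors' deposited tables. Orange points are genes called higher in wild type sporangiophores and blue points those called lower; in the left panel 1013 of the 1042 orange points lie below 0, and in the right panel 573 do.

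In mycelium of the same strain these genes were called higher at about the share of all genes tested, and called lower at a greater share. Of the 1042 genes called higher in wild type sporangiophores, 114 (10.9%) were also called higher by the authors' deposited table for wild type mycelium, where 9.86% of all genes were, and 131 (12.6%) were called lower, where 4.18% of all genes were. The shares of all genes are out of 14410, of which 11213 had a fold other than 0 in both structures. Of the 1042 genes, 465 had a positive and 573 a negative fold in mycelium, so the 2 shares are not over like sets. The folds of the 2 structures had a Pearson correlation of -0.09 and a Spearman correlation of -0.12 over 14410 genes that share a fit. At or above the median level they were -0.22 and -0.24. With the trend on level and span taken out of both, the values at or above that level were -0.073 and -0.067 (7167 genes). The light effect was higher in sporangiophores than in mycelium for 1174 of 11213 genes (10.5%) and lower for 1059 (9.44%), or 19.9% in all, at an adjusted p under 0.05. At or above the median level, PHYBLDRAFT_65588 had the largest positive difference (3.13 in sporangiophores and -2.77 in mycelium). PHYBLDRAFT_22465 had the largest negative one there (-4.01, FDR 0.2, and 6.14), in the authors' deposited tables. WcoA, WctD and WctB were higher in light by 5.28, 6.61 and 8.45 in mycelium, against 1.04, 0.68 and 0.02 in sporangiophores, and all 3 differences passed the test.

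Of the 114 genes called higher in both wild type structures, 75 (65.8%) were called lower in mutant sporangiophores as titled and 39 (34.2%) were not called there. Over all genes 12.3% were called lower and 84.3% were not called in the mutant, and of the other genes called higher in wild type sporangiophores 735 (79.2%) were called lower. Of the 114, 7 (6.14%) were also called higher in mutant mycelium. The share of all genes called higher there is not given here, so this count has nothing to be set against. The largest of the 39 at or above the median level, chosen after their values were seen, was PHYBLDRAFT_133033, with 3.45 ± 0.44 (SE) in wild type sporangiophores, 4.80 in wild type mycelium and -0.31 in mutant sporangiophores in the authors' deposited tables. The carotene gene carC had 2.82, 2.45 and -0.72 in the same order, and PHYBLDRAFT_185853 had 2.56, 5.06 and -0.13, in the authors' deposited tables. PHYBLDRAFT_32690 (2.63, 4.84 and -0.40), PHYBLDRAFT_128786 (2.25, 1.602 and -0.70) and PHYBLDRAFT_85761 (2.08, 3.82 and 0.14) had these values in the same order of the authors' deposited tables.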

How the data were processed

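Per the labels' protocols, Trizol was used for extraction and a MessageAmp II kit for amplification of the RNA. The submitters' processing notes name Bowtie and edgeR. Versions, build, annotation, filters and the counting rule are not given in the sources used here. As the headers show, each deposited table gives a log2 fold change, an average log2 CPM, a likelihood ratio score, a p-value and its FDR for one light against dark comparison. The deposited p-values matched a chi-square distribution of that score (1 degree of freedom). The main test, edgeR on counts, could not be run without counts, so the planned use of the authors' FDR under 0.05 took its place. The planned pairs of similar proteins were replaced by copies that share a symbol, and lists by product name could not be filled.

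IDs were matched to locus tags of assembly Phybl2 in a RefSeq gene table, where 14355 of 14410 (99.6%) were found, and 213 of its 16850 genes have a symbol. Differences between comparisons were tested as the difference of 2 folds over its approximate SE (normal reference, Benjamini-Hochberg over all genes with a fold other than 0 in both). Trends were taken out with a lowess curve on level (span 0.3) or the median of the 200 nearest genes in rank of level and gene span. Both steps were run on simulated data with independent normal errors, the second with a straight trend on level. No trend on gene span was simulated, so its removal was not checked there. Python 3.11.15, NumPy 2.4.6, pandas 2.3.3, SciPy 1.17.1 and statsmodels 0.14.6 were used. Members and lists were chosen with earlier results of these data known. Named genes were, among called genes at or above the median level, the 10 largest rises and falls with a symbol, 4 without in each direction, the 10 with the most reads in each direction, up to 4 called members of each list, all White Collar genes, and 4 genes in each direction for each difference; others named are said to be chosen later or belong to copies, neighbours or the trend check.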

Additional observations from a re-analysis of the deposited data

Results flagged for a closer look

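The light effect differed between wild type sporangiophores and mutant sporangiophores, by the test of the difference, for each gene that the rule named. The difference in log2 fold change (wild type minus mutant) was 10.72 for PHYBLDRAFT_159237, 10.03 for PHYBLDRAFT_136423, 9.92 for PHYBLDRAFT_164420 and 9.66 for PHYBLDRAFT_138142. It was -5.68 for PHYBLDRAFT_22465, -2.47 for PHYBLDRAFT_72277, -2.40 for PHYBLDRAFT_167695 and -2.39 for PHYBLDRAFT_78609, and 2.23 for MadB. PHYBLDRAFT_22465 and PHYBLDRAFT_78609 were called in neither strain alone. These differences rest on the direction given by the title of the mutant table.

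Between wild type sporangiophores and wild type mycelium the difference in log2 fold change (sporangiophores minus mycelium) was 5.89 for PHYBLDRAFT_65588, 5.47 for PHYBLDRAFT_62767, 5.17 for PHYBLDRAFT_58805 and 5.06 for PHYBLDRAFT_145315. It was -10.15 for PHYBLDRAFT_22465, -9.95 for PHYBLDRAFT_12373, -8.66 for PHYBLDRAFT_122815 and -8.62 for PHYBLDRAFT_11342. Among White Collar genes it was -8.43 for WctB, -5.93 for WctD and -4.24 for WcoA. The genes without a symbol were taken at or above the median level. PHYBLDRAFT_62767, PHYBLDRAFT_22465, PHYBLDRAFT_12373, PHYBLDRAFT_122815, PHYBLDRAFT_11342, WctB and WctD were not called in sporangiophores. The sporangiophore fold of PHYBLDRAFT_62767 was -0.03. Mycelium counts in darkness were not analysed here, so how many reads lie behind its largest folds is unknown.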

How the results depend on the processing

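No paired analysis was possible because the deposited tables give 1 fold per gene with no values per library, and no library could be left out for the same reason. The limit on identity between similar proteins was not run, since no protein sequences were at hand. The 1042 genes called higher, the 67 listed genes called higher, the 50 respiratory genes called higher and the 810 genes also called lower in the mutant stayed within 1.5 times of those counts under an FDR of 0.01, a 2-fold minimum, a level of at least the median and centring. Against an F distribution with 12 degrees of freedom they were 476, 34, 28 and 395, with the trend on level taken out 406, 18, 12 and 264, and with the trend on level and gene span taken out (an alternative added after seeing the data) 297, 9, 4 and 167. With 2 degrees of freedom all were 0, with 380 genes at an unadjusted p under 0.05, but the smallest p that the largest likelihood ratio allows there is 0.0107, so no call over all genes was possible and the zeros say nothing of stability. The 170 genes called lower were 31 at an FDR of 0.01 and 6 and 0 under the F references. The 2 listed genes called lower were 0 at an FDR of 0.01 and under both F references, 1 at or above the median level, 1 after centring and 4 with the trend on level and gene span taken out. These counts are not of the same genes. The 4 were SSK1, COX4, COX7A and NDUFA11_2, of which only SSK1 was called lower as deposited, and QCR1 was not called (adjusted p = 0.27). The 1 at or above the median level was neither SSK1 nor QCR1, which lie below it. The 799 genes with a lower fold than in the mutant were 457 at or above the median level, and with the mutant table read in the other direction (added after seeing the data) 273, while the 2020 with a higher fold were 40. Calls were 64.5% higher with the trend on level taken out and 64.7% with gene span too, in place of 86.0%.

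With the trend on level taken out, the folds of 9 of the 10 most read genes called higher turned negative: PHYBLDRAFT_124466 (-0.44), PHYBLDRAFT_187359 (-0.25), PHYBLDRAFT_135540 (-0.35), PHYBLDRAFT_157047 (-0.65), PHYBLDRAFT_136474 (-0.50), PHYBLDRAFT_36112 (-0.36), PHYBLDRAFT_89576 (-0.52), PHYBLDRAFT_159602 (-0.77) and PHYBLDRAFT_136235 (-0.78). So did those of PbMdha (-0.22), NDE2 (-0.16) and MadA (-0.69, or -0.38 with gene span too). PHYBLDRAFT_62767 turned to 0.022 after centring and 0.011 with the trend on level out. The cause was not tested.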
